A study of Drosophila melanogaster with 4 samples.

Results

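Hairy, a basic helix-loop-helix repressor that segments the Drosophila embryo, was mapped by chromatin immunoprecipitation and sequencing (ChIP-seq), and the 1818 Hairy peaks of chromosome arm 3R that lie past its first 1.5 Mb are described here. They were chosen by position alone: a peak belonged to the set when its midpoint lay above base 1500000 of 3R on Release 5 of the genome. They made up 20.3% of the 8958 peaks of the deposited list and 92.2% of the 1971 peaks on 3R. The last peak left out, at 1486546 to 1486980, scored 20.41, and the first one taken in, at 1510789 to 1511127, scored 15.37. The set spans 26.3 Mb, up to the end of the last peak at 27763208.

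The series holds 4 libraries, namely 2 Hairy immunoprecipitates and 2 inputs, all from embryos of unknown sex labelled as 0 to 8 h old, although the collection protocol speaks of a laying of 8 to 16 h. The flies were of the strain given as Y cn bw sp, and cross-linking took 15 min in 1.8% formaldehyde. The label lists the alleles oc[R3.2] beside y[1], then Gr22d[1] and Gr22b[1], CG33964[R4.2], and cn[1] with sp[1] and bw[1]. It further names Rh6[1], GstD5[1] and MstProx[1], and lab[R4.2] with LysC[1]. The antibody, KW3-h-D1, was a rabbit polyclonal serum against a Hairy peptide. Whole embryos were used, so a peak is a sum over all of their cells. Each peak has its limits and its score in the list, and nothing is given per library. Read depth is therefore unknown, values have no replicate error, and no difference described here was tested. The scale of the score is not named, and it is used only within the list, as order and as deposited values.

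Hairy is made in stripes in the early embryo as the product of a pair-rule gene, and later in neural and other precursors. It binds DNA as a dimer and recruits the co-repressor Groucho, which can silence an enhancer from a distance. Arm 3R carries the Antennapedia and bithorax complexes of Hox genes and the Enhancer of split complex, whose helix-loop-helix repressors are relatives of Hairy and are switched on by Notch signalling. In the RefSeq table for Release 6, which was used for names and gene order only, 7 genes of this helix-loop-helix family (E(spl)mdelta-HLH to E(spl)m8-HLH) and 4 of the Bearded family lie in a row of 12 protein-coding genes on 3R, followed by gro, the gene of Groucho. Neither sequence nor gene models of Release 5 were used, so no peak is assigned to a gene and no sequence is shown.

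Hairy peaks were unevenly spread along 3R, with crowded and empty stretches next to each other over the whole length of the arm. The set had 69.2 peaks per Mb, and the peaks covered 3.49% of the span. In the 262 complete adjacent windows of 100 kb, the number of peaks ran from 0 to 25, with a mean of 6.92 (SD 5.37 over windows), a median of 6 and quartiles of 3 and 10. The 52 densest windows, 20% of them, each had 11 peaks or more and together held 43.6% of the peaks in windows. The 63 densest were enough to hold 50%. At the other end, 18 windows held no peak and 29 held 1. A crowded window said little about the next: the counts of the 261 pairs of neighbouring windows correlated with a Spearman rho of 0.18, a description over windows of 1 library set and not a test.

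**Figure D1:**
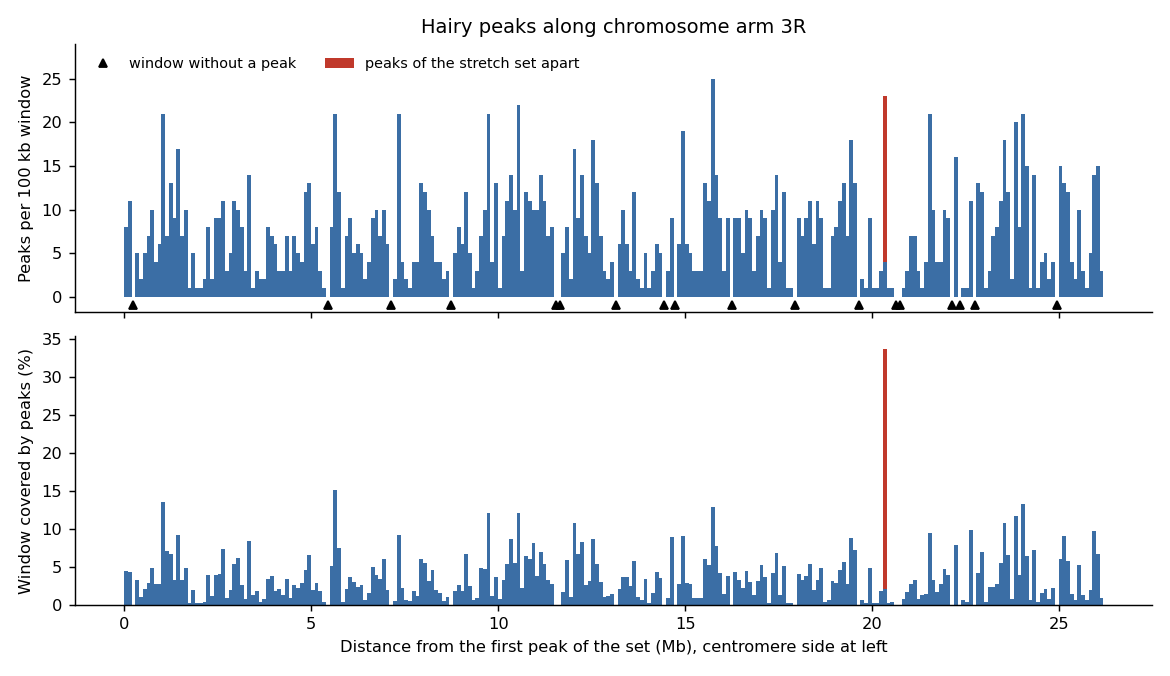
Peaks per 100 kb window (upper panel) and percent of each window covered by peaks (lower panel) along 3R, against the distance in Mb from the first peak of the set; red marks the 19 peaks at 21820001 to 21880000, and triangles mark the 18 windows without a peak. Counts reach 25 and vary from window to window along the whole arm, whereas coverage has a single high window, with 33.6%.

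By count, the crowded places were scattered along the arm. The densest window, 17200001 to 17300000, held 25 peaks with a median score of 14.3 and a highest score of 43.5. The next, 21800001 to 21900000, held 23 peaks, 19 of them from the stretch described below. The window 12000001 to 12100000 held 22 peaks with a median score of 16.9 and none above 40.76. With 21 peaks each followed, among others, 7100001 to 7200000 (coverage 15.1%) and 2500001 to 2600000 (coverage 13.6%). Another 4 windows, starting at 8800001, 11200001, 23000001 and 25500001, also had 21 peaks. Most of these crowded windows were made of modest peaks, since the median score in 8 of the 9 windows with 21 or more peaks lay between 12.4 and 18.5, and in the window 21800001 to 21900000 it was 69.0.

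The 26 complete windows of 1 Mb held 69.1 ± 15.9 peaks (mean ± SD), from 34 to 101. The fullest was 11500001 to 12500000 with 101 peaks, a coverage of 5.84% and 219 kb in gaps of 50 kb or more. It was followed by 13500001 to 14500000 with 95 peaks, 16500001 to 17500000 with 92 and 2500001 to 3500000 with 91. The emptiest was 21500001 to 22500000 with 34 peaks, next to which came 14500001 to 15500000 with 49 and 15500001 to 16500000 with 52. The poorest window by number was also the one with the highest median score, 21.1 against a median of 12.6 over the 26 windows, and the widest peaks, with a median of 687.5 bp against 369. Without the stretch at 21820001 to 21880000, only 15 peaks remained in it.

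That stretch of 60 kb was the strongest and most densely covered part of the arm. It is 0.228% of the span and held 19 peaks (1.05% of the set) and 3.43% of all bases in peaks. From general knowledge of the fly map, and not from any annotation used here, this is where Release 5 places the Enhancer of split complex. Peaks covered 52.5% of the stretch. The median peak there scored 75.7 and was 1536 bp wide, against 12.7 and 364 bp for the 1799 other peaks of the set. Of the 19, 13 were 1 kb or wider (68.4%), against 143 of the 1799 others (7.95%). Among the 18 peaks of the set with the highest scores (1%), 11 lay in it.

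A cut at a score of 50 split the peaks of the stretch in 2, with no score between 29.54 and 68.98 and with widths that overlapped. There were 12 peaks that scored 68.98 to 270.97, with widths of 1172 to 3642 bp and a median of 2128.5 bp. The other 7 scored 12.70 to 29.54, and their widths ran from 260 to 1271 bp with a median of 474 bp. From the centromere side, the first was a peak of 2036 bp at 21821795 to 21823830 (score 68.98). A stronger peak followed at 21824634 to 21826234 (162.10), then a weak one of 474 bp at 21826726 to 21827199 (13.03). Next came a run of 3 strong peaks with only 285 and 323 bp between them, at 21827928 to 21829366 (108.03), 21829652 to 21833293 (270.97) and 21833617 to 21837067 (128.28). The middle one is the third highest score and the second widest peak of the set.

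Past these, the stretch went on with weak peaks of 260 and 389 bp at 21838125 to 21838384 (12.70) and 21839055 to 21839443 (20.07). A gap of 3093 bp separated them from a pair 200 bp apart, 21842537 to 21845546 (137.18) and 21845747 to 21848416 (221.49). The peak at 21849793 to 21851328 scored 87.67. Weak peaks at 21852413 to 21852990 (19.25) and 21853680 to 21854014 (29.54) lay between it and a further series of strong ones. That series was 21854833 to 21857053 (93.38), 21857629 to 21858800 (69.40), 21860326 to 21863339 (90.52) and 21865056 to 21866624 (75.73). A peak of 1271 bp at 21867423 to 21868693 scored 22.08, and after 10063 bp without a peak the last, at 21878757 to 21879587, scored 28.57. The 6 highest scores of the stretch all lay before 21848416, on the centromere side, and the strong peaks ended at 21866624. The last peak before the limits of the stretch, at 21806149 to 21806742, scored 14.06, and the first past them, at 21880523 to 21881125, scored 18.73.

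**Figure D2:**
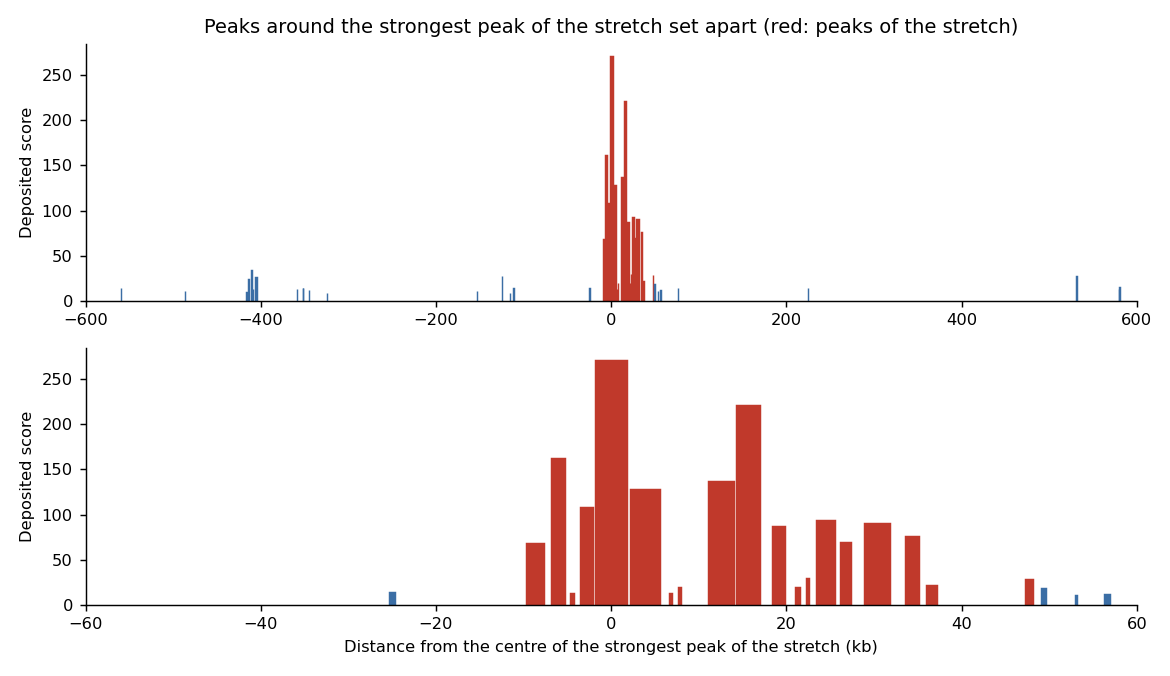
Deposited score (height) and extent (bar width, with a thin outline that widens narrow bars in the upper panel) of the peaks within 600 kb (upper panel) and 60 kb (lower panel) of the strongest peak at 21820001 to 21880000, against the distance in kb from the centre of that peak; red bars are the 19 peaks of the stretch. Runs of strong peaks are parted by weak ones in the stretch, and the surroundings hold few peaks, none above 34.22 within 500 kb of its limits.

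The surroundings of the stretch were poor in peaks. Within 100 kb on both sides lay 6 peaks, with a highest score of 18.7, and within 500 kb lay 22, of which 16 were on the centromere side and 6 on the other, with a highest score of 34.2. The group of 24 peaks that holds the stretch was bounded by gaps of 85.5 kb on the centromere side and 147.7 kb on the distal side. Beyond the distal gap, a lone peak of 324 bp at 22055650 to 22055973 (score 13.71) stood before the longest gap of the set. Between 21907938 and 22362106, 454 kb, this was the only peak, and no other stretch of the arm with a single peak was as long. The next longest that does not overlap it, 6720687 to 7035175, was 314 kb long around a peak of 355 bp at 6873267 to 6873621 (score 11.72).

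Gaps of 50 kb or more, called deserts here, took up much of the arm. There were 123 of them among the 1817 gaps from one peak to the next (6.77%), and together they made up 11.6 Mb or 44.1% of the span. Their median length was 76.6 kb, and 37 were 100 kb or longer. By contrast, 463 gaps (25.5%) were at most 1 kb long and held 0.704% of the span. The median gap was 4527 bp, with quartiles of 974 and 13827 bp and a shortest gap of 50 bp. A desert is a stretch where no peak passed the authors' threshold, which the list does not give. Sequence to which reads cannot be placed would look the same, and its part was not tested.

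**Figure D3:**
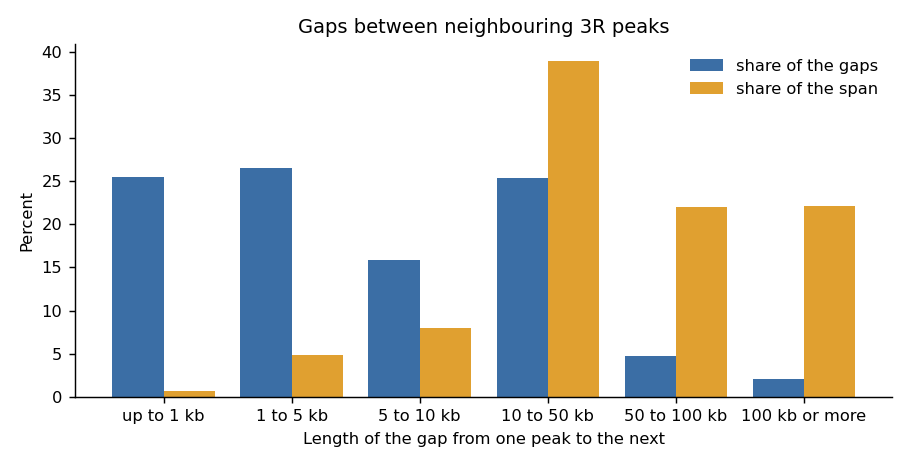
Share of the 1817 gaps between neighbouring 3R peaks (blue) and share of the span they take up (orange), in percent, by length of the gap. Gaps of up to 1 kb are 25.5% of all gaps and 0.704% of the span, and those of 100 kb or more are 2.04% of the gaps and 22.1% of the span.

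None of the 10 longest deserts began before 8524337, and 7 began past the midpoint of the span. This depends on the number taken, since the 18 deserts of 150 kb or more began as early as 4906581. The longest, 22055974 to 22362106, measured 306 kb. It was followed by 8524337 to 8795442 (271 kb), 12978130 to 13210343 (232 kb), 14515799 to 14730785 (215 kb) and 16153705 to 16366722 (213 kb). Then came 23534655 to 23739833 (205 kb), 26344480 to 26540202 (196 kb) and 24170612 to 24348483 (178 kb). The last of the 10 were 19330457 to 19505859 (175 kb) and 21506977 to 21677777 (171 kb). Of the 20 peaks at their borders, the strongest was one of 550 bp that scored 34.29, just before the desert at 12978130. A desert could border directly on a crowd: the one ending at 8795442 was followed by a group of 27 peaks over 125 kb, and the one ending at 23739833 by 16 peaks over 54.6 kb. Of the 18 windows of 100 kb without a peak, 4 formed adjacent pairs, at 13000001 to 13200000 and at 22100001 to 22300000. Per 1 Mb window, deserts took between 149 kb, at 16500001 to 17500000, and 752 kb, at 21500001 to 22500000.

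Between the deserts lay 124 groups of peaks. With the deserts left out, which raises the density by definition, the groups occupied 14.7 Mb with 123.9 peaks per Mb. Their sizes were very unequal: 26 were lone peaks, 6 were pairs, the median group had 7.5 peaks, and the 20 groups with 30 peaks or more held 53.0% of the set. The largest ran from 16783348 to 17544831, 761 kb with 83 peaks, and includes the densest window of the arm. Others held 79 peaks over 532 kb (2482166 to 3013981), 70 over 619 kb (12166948 to 12786175) and 69 over 485 kb (20532652 to 21017860). The group at 2482166 had a median score of 16.9 and a highest of 127.98, and that at 20532652 a median of 11.6 and a highest of 36.28. Among groups of 15 peaks or more, the most tightly packed was 13516514 to 13543787, with 15 peaks in 27.3 kb between deserts of 85.5 and 53.6 kb and no score above 34.63.

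**Figure D4:**
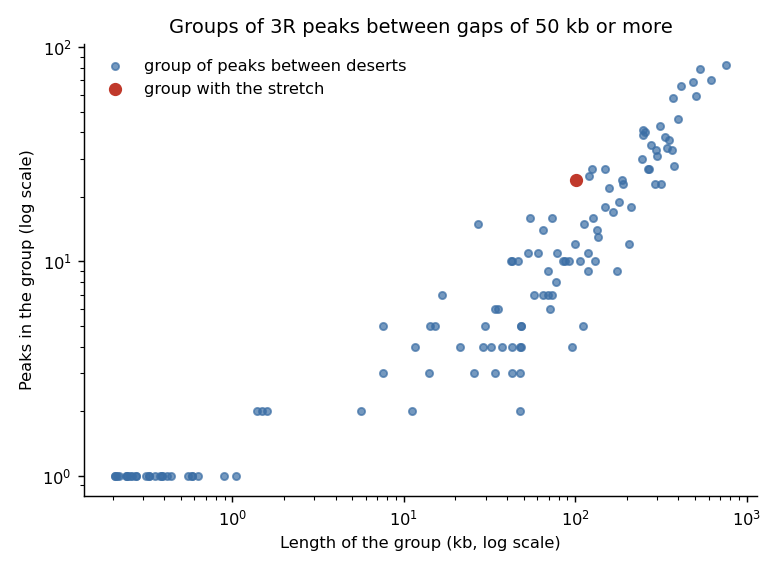
Number of peaks against length in kb, both on log scales, of the 124 groups of peaks that deserts of 50 kb or more separate on 3R; the red point is the group of 24 peaks in 102 kb around 21820001 to 21880000. Groups range from 26 lone peaks to 83 peaks over 761 kb.

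The lone peaks between deserts were weak. Their scores ran from 6.55 to 34.29 with a median of 10.2 (exact binomial 95% interval of the median 9.56 to 11.7). Of the 26, 1 was 1 kb or wider (3.85%, interval 0.0973 to 19.6%), against 8.58% of all 1818 peaks. This count is too small to set them apart by width. The 194 other peaks next to a desert had a median score of 12.5 (11.7 to 13.4), and the 1598 peaks inside groups one of 13.03 (12.6 to 13.3). These intervals treat peaks as independent, which neighbours are not. The most isolated peaks were the 2 named above, at 6873267 and 22055650, with the nearest midpoint 153 and 148 kb away. They were followed by 23908910 to 23909489 (115 kb, score 11.40), 19330203 to 19330456 (93.3 kb, score 7.85) and 3544090 to 3544331 (92.5 kb, score 10.15).

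Most peaks had company. Of the 1818, 1582 (87.0%, 95% Clopper-Pearson interval 85.4 to 88.5) had another midpoint within 10 kb, and 502 (27.6%) within 1 kb. The interval treats peaks as independent, which they are not, since being neighbours is mutual. Chains of 3 or more peaks with gaps of at most 1 kb numbered 93 and held 315 peaks (17.3%), and 66 of them were of 3 peaks. The one with the most peaks was the part of the stretch from 21821795 to 21837067, with 6 peaks over 15.3 kb, 82.8% of it covered. The 7 chains next by number of peaks had 5 each and were 2.60 to 4.70 kb long, with no score above 21.87. Some chains of fewer peaks were longer, such as 7197430 to 7204732, with 7.30 kb and a highest score of 51.74.

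With gaps of up to 5 kb there were 208 chains, which held 944 peaks (51.9%). By number of peaks, 2 chains led with 18 each, and they differed in length, coverage, width and score. One, at 20992385 to 21017860, was 25.5 kb long, 36.0% covered, with a median width of 450.5 bp, a median score of 12.9 and a highest score of 28.17. The other, the stretch from 21821795 to 21868693, was 46.9 kb long, 65.4% covered, with a median width of 1552.5 bp, a median score of 81.7 and a highest of 270.97. A chain of 15 peaks at 13516514 to 13543787 is the packed group named above, and chains of 12 lay at 8821451 to 8851330 and 11234154 to 11249147, with highest scores of 33.58 and 37.15.

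There were 31 peaks of the set that scored 50 or more, 12 in the stretch and 19 elsewhere. The strongest of the arm, at 25541600 to 25544648, was 3049 bp wide and scored 430.92, and the best of the 19 other peaks within 50 kb of it scored 35.97. The next, 12419740 to 12423264, was 3525 bp wide and scored 290.93, with a highest score of 28.62 among the 10 others within 50 kb. The peak of 1099 bp at 6490020 to 6491118 scored 246.80, and the best of its 10 neighbours scored 22.49. Of the 19, 4 had another peak of 50 or more within 50 kb, and 12, these 4 included, had one among the highest 5% of scores of the set (32.03 and above). The same shares over all 1818 peaks are not given here, so these counts show neither an excess nor a lack. The 4 were the pair 2795558 to 2797172 (127.98) and 2798250 to 2799323 (68.37), and the pair 7094641 to 7095127 (97.40) and 7137898 to 7138460 (56.33).

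On the centromere side of the midpoint of the span, 16 of 924 peaks scored 50 or more, and on the distal side 15 of 894 did. Without the stretch, which is distal, the distal number was 3 of 875. At a score of 30 or more, also without the stretch, the numbers were 59 and 36, and the median scores were 13.1 and 12.5. The longest run of the arm without a peak of 50 or more was 4.81 Mb, from 17011129 to 21821795, where the stretch begins. Without the stretch, the next such peak past 17011129 started only at 25314121. The 91 peaks with the highest 5% of scores reached 24 of the 26 windows of 1 Mb.

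Peaks of 3R were mostly narrow. The median width was 367 bp (exact binomial 95% interval of the median 352 to 381), its quartiles were 266 and 578 bp, and the widest peak measured 5425 bp. There were 633 peaks under 300 bp (34.8%), 37 of them at the smallest width in the list, 609 from 300 to under 500 bp and 420 from 500 bp to under 1 kb. The remaining 156 (8.58%, Clopper-Pearson interval 7.33 to 9.96) were 1 kb or wider, 25 of them 2 kb or wider. Without the stretch the median was 364 bp, the quartiles 265 and 571 bp and the share of 1 kb or wider 7.95%, so its peaks hardly moved the widths of the arm as a whole. In contrast, 7 of the 25 peaks of 2 kb or more and 4 of the 9 of 3 kb or more lay in it.

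Broad peaks were strong peaks for the most part. From the lowest to the highest quartile of the score, the median widths were 264, 314, 395 and 728 bp. None of the 458 peaks of the lowest quartile was 1 kb wide, and 139 of the 455 in the highest were (30.5%). Without the stretch, the highest quartile had a median of 709.5 bp and a share of 28.2%. Over the 1818 peaks width and score had a Spearman rho of 0.66, and 0.66 without the stretch as well; the points come from 1 list and the caller gave both values. The widest peak of the arm, 7197430 to 7202854, was 5425 bp wide and scored 51.74. Wide and weaker ones were 24408311 to 24411597 (3287 bp, score 48.38) and 10643777 to 10646793 (3017 bp, score 25.59). Only 3 peaks of 50 or more were narrower than 500 bp, and 2 of them were among the 12 strongest of the set. These were 12624418 to 12624854 (437 bp, score 98.80) and 7094641 to 7095127 (487 bp, score 97.40), and neither had another midpoint within 10 kb. For the first the nearest lay just past that, at 10.03 kb, and for the second at 23.8 kb. Within 50 kb they had 13 and 10 other peaks. On the other side, 38 peaks of 1 kb or more scored under 20.

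**Figure D5:**
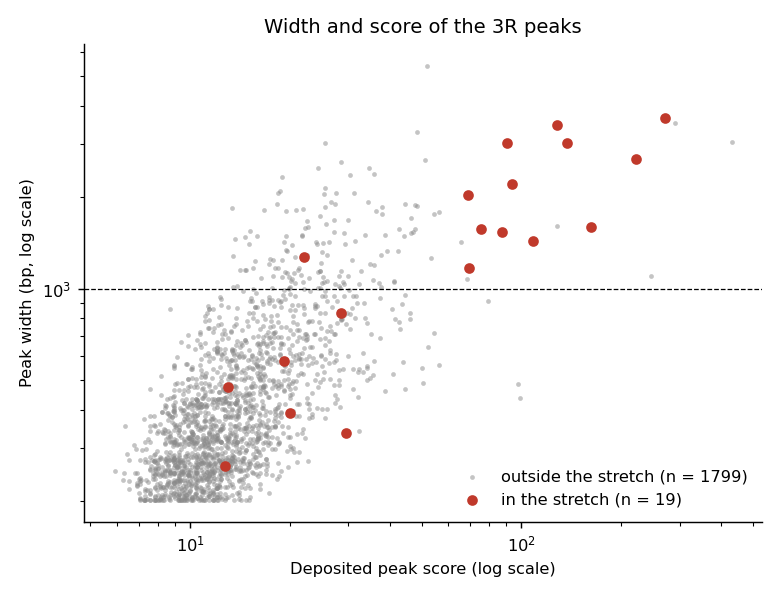
Width in bp against deposited score, both on log scales, of the 1818 peaks of 3R; red points are the 19 peaks at 21820001 to 21880000, and the dashed line marks 1 kb. Peaks of higher score are wider for the most part, 12 of the red points lie apart at high scores, all above the line, and 2 narrow peaks near a score of 98 lie below the others of such scores.

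Peaks in crowded places were somewhat wider by median, a difference that was not tested. Peaks with no other within 10 kb (236) had a median width of 348.5 bp (interval 321 to 381), those with 1 or 2 (712) one of 354 bp (339 to 377) and those with 3 or more (870) one of 384 bp (359 to 405). The shares of 1 kb or wider were 5.51, 8.43 and 9.54%. Median scores rose over the same classes, at 11.72, 12.7 and 13.33, and widths at equal score were not compared. Leaving out the stretch brought the last group to 380 bp and 8.25%. For peaks with 6 or more neighbours the share was 10.6% with the stretch and 6.67% without it. By windows, the 52 densest had a median width of 395 bp (375 to 416) and a share of 11.1%, or 390 bp (367 to 409) and 9.73% without the stretch. Among windows tied at 11 peaks, those with the highest coverage were taken. Coverage sums widths, so this class was partly chosen by width. Windows with 1 to 3 peaks had 334 bp (302 to 364) and 6.62%. The intervals of the medians did not meet, but those of the shares did (9.03 to 13.5% and 3.07 to 12.2%). All of them treat peaks as independent, which neighbours are not. The median score was 13.6 in the 52 densest windows and 11.6 in those with 1 to 3 peaks. With the stretch, the windows 21500001 to 22500000 and 2500001 to 3500000 were level at 14 broad peaks each, against a median of 6 per 1 Mb. Without the stretch the first had 1, and the other windows were as before. Next came 11500001 to 12500000 and 13500001 to 14500000 with 12 each, and 8500001 to 9500000 and 9500001 to 10500000 had 1 each.

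Most of these values lay within the range of the other large arms, each taken without the 1.5 Mb at its centromere end. The share of 100 kb windows without a peak was 6.87% on 3R and ran from 2.04% on 2R to 13.5% on the X. Deserts took up 44.1% of the span of 3R, 43.4% on 3L, 47.7% on 2L, 53.6% on the X and 31.3% on 2R. The longest gap was 306 kb on 3R, 243 kb on 3L, 429 kb on 2L, 353 kb on the X and 177 kb on 2R. In the densest 20% of windows lay 43.6% of the 3R peaks and 40.9 to 49.1% of those of the 4 other arms. The median width of 367 bp on 3R was below the 377 to 387 bp of the others, and the share of 1 kb or wider, 8.58%, above their 6.83 to 8.10%. The share was 7.95% without the stretch, within that range, but no such stretch was left out of the other arms. These differences were not tested.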

How the data were processed

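One file was analysed, a list of 8958 peaks deposited by the authors, in Release 5 coordinates per the file headers, with MACS named as the source of each line. The submitters' processing notes name the build BDGP5 and, as tools, MACS2, BWA and CASAVA in versions 1.7.0.3 and 1.7.0.2. Not given in the sources used here are the control, the threshold, the handling of duplicate reads and any pooling, which decide what peaks are listed. The score of each peak is the authors' deposited value, on a scale the list does not name, and the start and end are other deposited values, counted from 1. No peaks overlapped.

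Peaks were counted by midpoint in adjacent windows of 100 kb and 1 Mb from base 1500001, taking complete windows only. Gaps run from the end of a peak to the start of the next. Deserts are gaps of 50 kb or more, and chains hold 3 or more peaks. Coverage is the summed width as a percent. Intervals are 95% exact binomial intervals and cover counting error only, and they treat peaks as independent, which neighbours are not. Named were the 5 densest and most covered windows, the extreme 1 Mb windows, the 10 longest deserts, the 10 strongest and widest and the 5 most isolated peaks, the 3 longest chains and all peaks at 21820001 to 21880000. The splits at scores of 20, 30 and 50, the midpoint of the span, the groups between deserts and other named peaks were chosen after the values were seen. Members and lists were chosen with earlier results of these data known. The functions recovered the known values in 20 of 20 simulated lists. Figures were drawn with matplotlib 3.10.9. Calculations ran in Python 3.11.15 with pandas 2.3.3, numpy 2.4.6 and, for the intervals, scipy 1.17.1. The alternatives were a higher score threshold, joined peaks, a limit of 3 Mb, shifted windows, other neighbour distances and leaving out the stretch or the widest peaks.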

Additional observations from a re-analysis of the deposited data

How the results depend on the processing

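No paired analysis was possible because values per library are not in the peak list, which also means that leaving out replicates was not possible. Of the 63 values computed under the alternatives, 49 stayed within 1.5 times, or within the exact binomial interval for shares of peaks and medians. Among them were all 13 without the stretch at 21820001 to 21880000, all 13 with a limit of 3 Mb and all 4 with windows shifted by 50 kb. The stretch holds 1.05% of the peaks, so leaving it out could move these values only little. Shares of the span were judged by 1.5 times. With the higher-scoring peaks alone, deserts at 65.9% (44.1% with all peaks) and coverage at 2.37% (3.49% with all peaks) therefore counted as staying. Without the stretch, 124 deserts were counted in place of 123, because removing its peaks opens a gap. Among the 909 peaks with the higher scores, fewer by construction, there were 34.6 peaks per Mb, a median of 3 per window, 51 windows without a peak and 51.5% of peaks in the densest 20% of windows. Of these, 72.8% had a neighbour within 10 kb, their median width was 529 bp, 17.2% were 1 kb or wider and their median score was 17.3. Deserts then took up 65.9% of the span. Joining peaks within 500 bp gave 1514 peaks, a share with a neighbour of 81.2%, a median width of 427 bp, 16.8% at 1 kb or wider and a median score of 13.4. The share of broad peaks thus depends on whether close peaks count as one. Within 5 kb 72.6% of peaks had a neighbour, and within 20 kb 94.3%. Depth is unknown, so weak sites below the threshold cannot be told from absent ones.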

Other observations

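The 153 peaks of 3R below the limit of 1.5 Mb, next to the centromere, were not poorer or weaker than the rest in plain values. They came to 102 per Mb, covered 5.21% of that sequence and had a median score of 13.95, a highest score of 59.86 and a median width of 386 bp. Among them 14 (9.15%) were 1 kb or wider, and 3 gaps were 50 kb or longer, the longest 136 kb. The separate scaffold of 3R heterochromatin, 3RHet, held 23 peaks with a median score of 12.7 and a highest of 77.89.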
